A study of Mus musculus with 6 samples.

Results

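The 33 astrocyte genes described here are genes used as markers of astrocytes in brain tissue. They were chosen by gene symbol in the annotation of the array, each through a probeset (a group of probes summarised as 1 value) that is assigned to 1 gene only, and where a gene had several such probesets the one with the highest mean over the 6 arrays would have been taken. Each of the 33 genes had exactly 1 such probeset, and all 33 were among the 16663 genes (18239 probesets) that were tested, a set limited to probesets with a mean log2 signal of at least 6. Hypothalamic RNA of female C57Bl/6J mice aged 21 weeks was hybridised to Affymetrix whole-transcript arrays. The CON group held 3 arrays of control offspring. The CGP group held 3 arrays of offspring whose mothers had received the NMDA receptor antagonist CGP 39551 by mouth at 5 mg/kg, from pregnancy until the pups were weaned, and the offspring were examined as adults. Each group was 18 pooled mice. One line of the labels names the adrenal gland as the organ collected, while the titles, the source and the extraction step name the hypothalamus, which is followed here. All 10 neuronal marker genes looked up passed the signal limit, but so did 18239 of all 18690 probesets with 1 gene. The mean log2 signal of these 10 genes ran from 11.66 to 11.69 on the 6 arrays. No adrenal marker genes were looked up, so the organ was not tested by these values. The labels do not say if the 3 arrays carried different pools of RNA or the same one, so the p-values below take only array-to-array spread into account, and that spread may be technical.

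Astrocytes are the glial cells that enclose synapses and blood vessels. They take up potassium and glutamate, pass water and ions through channels at their vascular endfeet, are coupled to each other by gap junctions, secrete lipoproteins and matrix proteins that act on synapses, and supply neurons with metabolites. In the hypothalamus they also take part in sensing nutrients and in the remodelling of contacts around neuroendocrine neurons. When the tissue is injured or inflamed they raise their filament protein and a group of stress and immune genes, which is called reactivity.

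The comparison asked whether the astrocyte genes of the adult female hypothalamus differed after exposure to CGP 39551 before weaning. None of the 33 genes differed between CGP and CON at an adjusted p under 0.05 in limma, a linear model fitted to all tested probesets with Benjamini-Hochberg adjustment over all of them. Adjusted p-values of the 33 genes ran from 0.271 to 0.991. Over all tested probesets 28 (0.154%) rose and 23 (0.126%) fell in CGP, and the median change over all of them was -0.0031 on the log2 scale. With so few calls over all probesets, 0 of 33 genes says little about astrocyte genes. The same comparison made for each probeset on its own, without limma's sharing of variances across probesets, called 0 of the 33 genes. It called only 6 of all tested probesets (0.0329%), so its 0 adds little. S100b was called in 1 of the 16 alternative settings, in which the variance was fitted with a trend and robustly (adjusted p = 0.0491, limma). That setting called 249 of all tested probesets (1.37%), against 51 in the fit described here. In bulk tissue, fewer astrocytes and less RNA of a gene in each astrocyte cannot be told apart, and a p that misses the threshold does not show that the groups were equal.

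The direction of the small differences was uneven. Of the 33 genes 25 (75.8%) had a lower mean in CGP than in CON, against 52.1% of all tested probesets. This count was 22 when each array was centred on its median and 21 after quantile normalization. The share of all tested probesets below CON was not counted in those settings. The median change of the 33 genes was -0.028 on the log2 scale, or -0.016 with centred arrays and -0.015 after quantile normalization. It was -0.011 without CGP replicate 3 and -0.043 without CGP replicate 2. For 10 genes (30.3%) every CGP array lay below every CON array, and for 2 genes (6.06%) every CGP array lay above, against 9.95% and 7.59% of all tested probesets. The count above CON was 5 without CGP replicate 3 (Chrdl1, Fgfr3, Prodh, Sox2 and Sox9), where 13.6% of all tested probesets lay above. It was 2 without any 1 of the other arrays, where 11.0% to 14.5% of all tested probesets lay above. With centred arrays 8 genes had all CGP arrays below CON and 3 all above, against 8.31% and 10.1% of all tested probesets. After quantile normalization these counts were 8 and 2, against 9.54% and 9.14%. With p under 0.05 before adjustment there were 8 lower genes (24.2%), S100b, Gfap, Plcd4, Gjb6, F3, Slc39a12, Cbs and Aqp4, and 0 higher genes, against 5.83% lower and 5.25% higher over all tested probesets. That count of 8 became 5 with centred arrays and 4 after quantile normalization. It became 12 with the variance fitted with a trend and robustly, and 9 without limma's sharing of variances. Without CON replicate 1, 2 or 3 it was 4, 4 and 3, and without CGP replicate 1, 2 or 3 it was 6, 3 and 5. The share of all tested probesets with p under 0.05 was not counted in these settings.

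**Figure D1:**
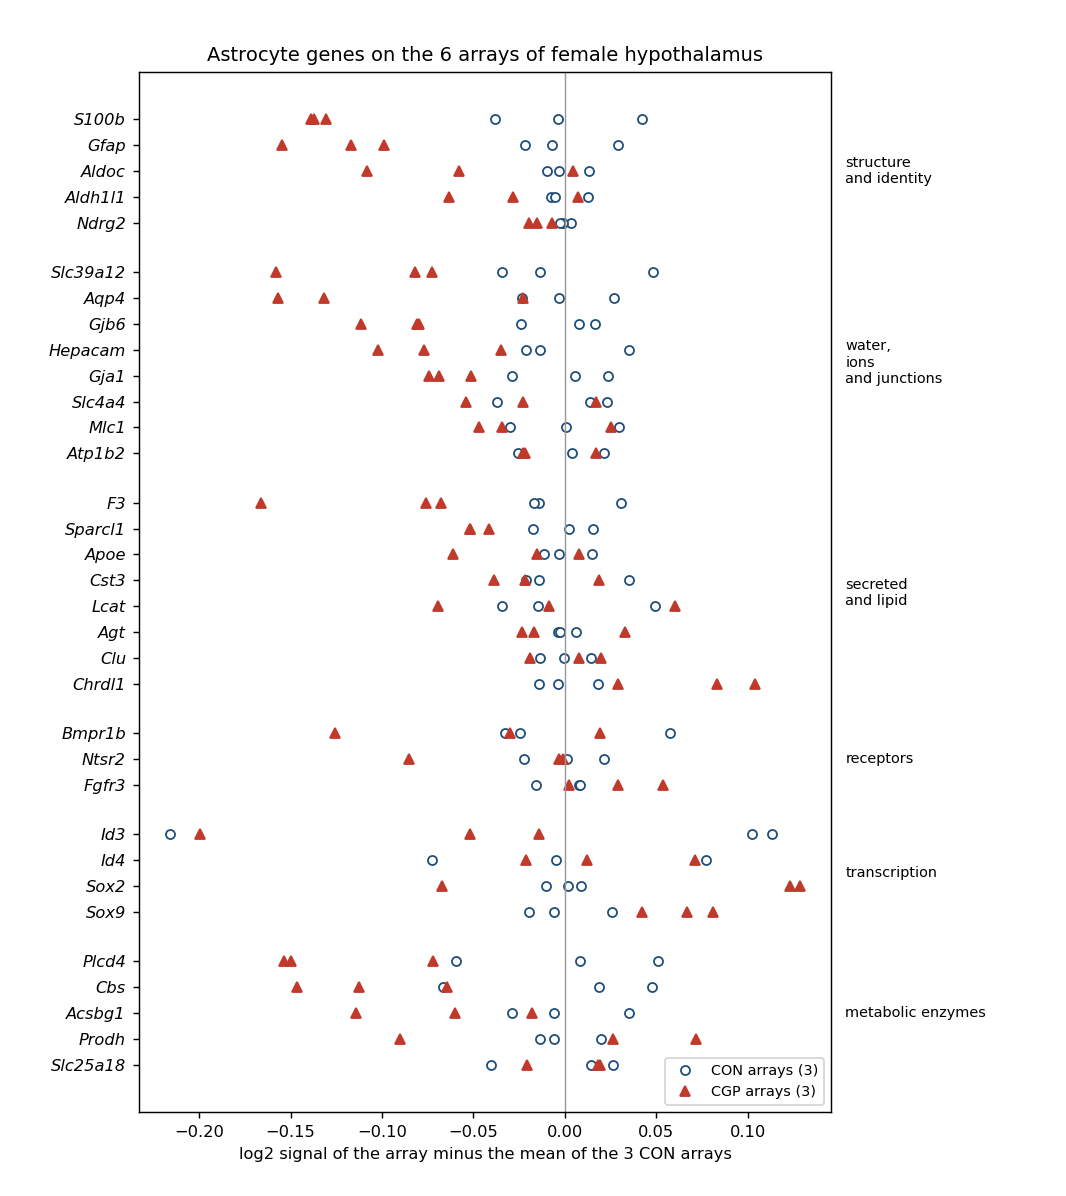
Each row is 1 of the 33 astrocyte genes and each symbol 1 array, placed on the horizontal axis at its log2 signal minus the mean of the 3 CON arrays of that gene (open circles CON, filled triangles CGP). The CGP arrays of S100b, Gfap, Slc39a12, Gjb6, F3 and Plcd4 lie apart to the left of the CON arrays, those of Chrdl1 and Sox9 apart to the right, and for Id3 the spread within CON is wider than the difference.

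The size of the differences was small throughout. The largest was -0.14 (S100b, -8.97% on the linear scale) and the highest was 0.072 (Chrdl1, 5.12%). The 95% interval of the change lay within a 1.2-fold change either way (0.263 on the log2 scale) for 32 of the 33 genes (97.0%), against 89.8% of all tested probesets. The exception was Id3, whose interval reached from -0.30 to 0.12. Residual SDs of the 33 genes ran from 0.0050 (Ndrg2) to 0.149 (Id3) with a median of 0.032, below the median of 0.057 over all tested probesets. The 33 genes had 6-array means from 7.59 to 14.0, where array medians were 8.191 to 8.206. A set of probesets of like signal was not compared.

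**Figure D2:**
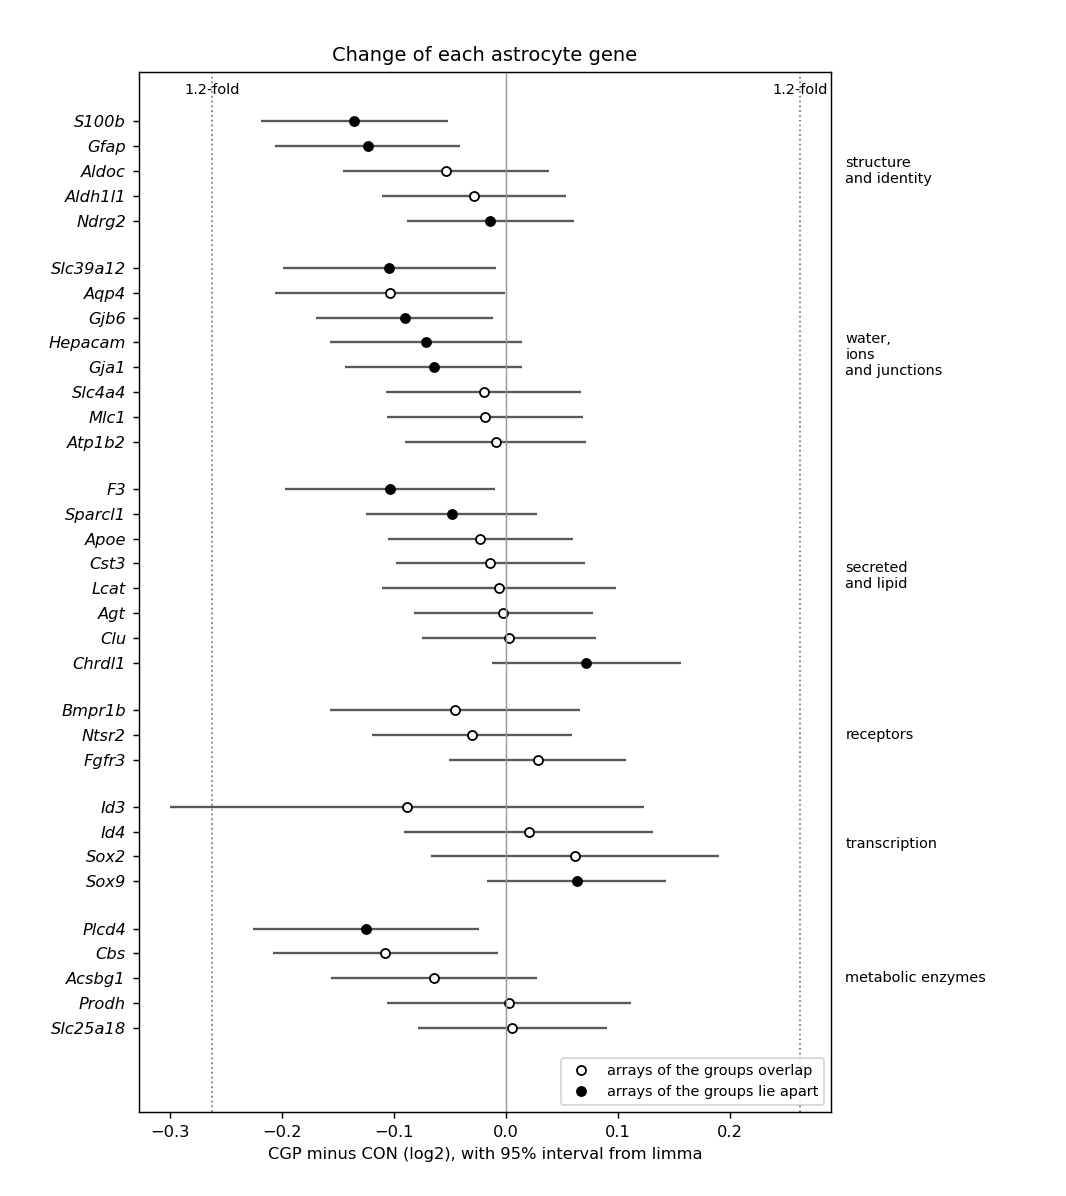
Points show CGP minus CON on the log2 scale for each astrocyte gene and horizontal lines the 95% interval from limma. Filled points are genes whose CGP arrays all lie on 1 side of the CON arrays, and dotted lines mark a 1.2-fold change (0.263), which only the interval of Id3 crosses.

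The 6 arrays were alike as a whole. Correlations between arrays were 0.997 to 0.998 within groups and 0.996 to 0.998 between groups, array medians were 8.191 to 8.206, and no 2 arrays were identical. CGP replicate 3 had the lowest value of the 6 arrays for 17 of the 33 astrocyte genes and the highest for 0, where over all tested probesets it was lowest for 22.5% and highest for 11.8%. The median deviation of the 33 genes on that array from their 6-array means was -0.038, against -0.013 for all tested probesets. On CGP replicate 2 the same median was -0.00010, so the CGP arrays themselves differed in how far the astrocyte genes lay from CON.

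The genes of astrocyte structure and identity were Gfap, S100b, Aldh1l1, Aldoc and Ndrg2. All 5 had a lower mean in CGP, with a median change of -0.054, and 0 passed the test. S100b encodes a small calcium-binding protein that astrocytes also release. Its log2 signal was 10.26, 10.29 and 10.34 on the CON arrays and 10.16, 10.15 and 10.16 on the CGP arrays. The groups did not overlap, and the 3 CGP arrays were closer to each other than the CON arrays were. The means were 10.29 ± 0.040 for CON and 10.16 ± 0.0042 for CGP (SD, n = 3 arrays each), and the change was -0.14 (SE 0.036, 95% interval -0.22 to -0.052, adjusted p = 0.271, limma).

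Gfap encodes the intermediate filament that fills the processes of astrocytes and that increases in reactive cells. Its log2 signal was 9.94, 9.98 and 9.92 on the CON arrays and 9.83, 9.85 and 9.79 on the CGP arrays. Every CGP array lay below every CON array. The change was -0.12 (SE 0.036, 95% interval -0.21 to -0.041, adjusted p = 0.303, limma), or -8.21% on the linear scale. Aldh1l1, a folate enzyme found in nearly all astrocytes, had means of 9.57 ± 0.011 in CON and 9.54 ± 0.035 in CGP, and its arrays overlapped. Aldoc, the brain form of the glycolytic enzyme aldolase, had a change of -0.054 (SE 0.040), and its highest CGP array (13.32) lay between the lowest and the highest CON arrays. Ndrg2, a cytoplasmic protein rich in astrocytes, was the most even of the genes, with 13.71 on all CON arrays and 13.70, 13.70 and 13.69 on the CGP arrays. Its arrays lay apart although the change was only -0.014 (adjusted p = 0.908, limma).

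The genes for water, ion and junction proteins were Aqp4, Gja1, Gjb6, Mlc1, Hepacam, Atp1b2, Slc4a4 and Slc39a12. All 8 had a lower mean in CGP (median change -0.068), except that Atp1b2 lay above CON with centred arrays (0.0030) and after quantile normalization (0.0042), where Mlc1 did as well (0.0025). The gap junction connexins of astrocytes both had separate groups. Gjb6 had 10.23, 10.27 and 10.26 on the CON arrays and 10.17, 10.14 and 10.17 on the CGP arrays. Its change was -0.091 (SE 0.034, 95% interval -0.17 to -0.012, adjusted p = 0.412, limma). Gja1, the other connexin, had 11.73, 11.67 and 11.71 on the CON arrays and 11.65, 11.64 and 11.63 on the CGP arrays. All CGP arrays again lay below CON (change -0.065, SE 0.034, adjusted p = 0.536, limma).

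Aqp4, the water channel of the endfeet, had 9.62, 9.64 and 9.67 on the CON arrays and 9.51, 9.62 and 9.49 on the CGP arrays. CGP replicate 2 lay at the level of CON, so the groups overlapped (change -0.10, SE 0.045, adjusted p = 0.449, limma). Slc39a12, a zinc importer, had 9.93, 9.85 and 9.87 on the CON arrays and 9.81, 9.80 and 9.73 on the CGP arrays. Its groups lay apart (change -0.10, SE 0.041, adjusted p = 0.422, limma). Hepacam, an adhesion protein of astrocyte junctions that binds Mlc1, had 11.33, 11.38 and 11.34 in CON and 11.25, 11.27 and 11.32 in CGP, also apart (change -0.071, SE 0.037, adjusted p = 0.529, limma). Mlc1, its membrane partner, overlapped between the groups (11.76 ± 0.030 against 11.74 ± 0.038). So did Slc4a4, the sodium bicarbonate cotransporter (change -0.020, SE 0.038), and Atp1b2, the glial beta subunit of the sodium pump (change -0.0092, SE 0.035).

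The secreted and lipid genes were Agt, Apoe, Clu, Cst3, Sparcl1, Chrdl1, Lcat and F3, and they went both ways. Of these 8 genes 6 had a lower and 2 a higher mean in CGP (median change -0.0100), except that Agt and Lcat lay above CON with centred arrays (0.0098 and 0.0062) and after quantile normalization (0.011 and 0.0036). F3, tissue factor, which starts blood clotting, had 10.94, 10.89 and 10.89 on the CON arrays and 10.84, 10.74 and 10.83 on the CGP arrays. The groups lay apart, with CGP replicate 2 farthest from CON (change -0.10, SE 0.041, adjusted p = 0.420, limma). Sparcl1, a matrix protein that promotes synapse formation, had 13.52, 13.54 and 13.56 in CON and 13.49, 13.49 and 13.50 in CGP. Its change of -0.048 was small and its groups were apart (SE 0.033, adjusted p = 0.628, limma).

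Chrdl1 was 1 of the 2 genes with all CGP arrays above CON. It encodes a secreted antagonist of bone morphogenetic proteins (BMP) through which astrocytes mature synapses. Its signal was 7.54, 7.58 and 7.55 on the CON arrays and 7.66, 7.59 and 7.64 on the CGP arrays, and CGP replicate 2 lay just above the highest CON array. The change was 0.072 (SE 0.037, 95% interval -0.012 to 0.16, adjusted p = 0.517, limma). The remaining secreted genes overlapped. Apoe, the main lipid carrier of the brain, had means of 13.22 ± 0.014 in CON and 13.20 ± 0.035 in CGP. Agt, the precursor of angiotensin made by hypothalamic astrocytes, had 12.38 ± 0.0055 against 12.38 ± 0.031, with an interval of -0.083 to 0.078. The changes of Clu, a lipid-binding chaperone, Cst3, a protease inhibitor, and Lcat, which esterifies cholesterol, were 0.0026 (SE 0.034), -0.014 (SE 0.037) and -0.0060 (SE 0.045).

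The receptor genes were Fgfr3, Bmpr1b and Ntsr2, and the arrays of all 3 overlapped between the groups. Bmpr1b, a receptor for BMP, had 8.79, 8.71 and 8.70 in CON and 8.75, 8.70 and 8.61 in CGP (change -0.045, SE 0.049, adjusted p = 0.769, limma). Ntsr2, the low-affinity neurotensin receptor, had a change of -0.030 (SE 0.039), and CGP replicate 3 (11.77) was its lowest array. Fgfr3, a receptor for fibroblast growth factors (FGF), had a change of 0.028 (SE 0.034).

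The transcription genes Sox9, Sox2, Id3 and Id4 had a median change of 0.041, with 3 of the 4 above CON and 0 past the test. Sox9, the nuclear factor that marks most adult astrocytes, had 9.78, 9.77 and 9.81 on the CON arrays and 9.87, 9.86 and 9.83 on the CGP arrays. All CGP arrays lay above CON (change 0.063, SE 0.035, 95% interval -0.017 to 0.14, adjusted p = 0.547, limma). Sox2, a factor shared with neural stem cells, had 9.89, 9.91 and 9.90 in CON and 10.02, 10.02 and 9.83 in CGP. CGP replicate 3 lay below all CON arrays and the other CGP arrays above them, so its change of 0.061 had the highest upper limit of the list (95% interval -0.067 to 0.19, adjusted p = 0.722, limma). Id3 and Id4, which block DNA binding by other factors and respond to BMP, overlapped. Id3 had 8.47, 8.14 and 8.46 on the CON arrays and 8.35, 8.31 and 8.16 on the CGP arrays, with CON replicate 2 as low as CGP replicate 3. Id4 had a change of 0.0205 (SE 0.048), which became -0.016 without CON replicate 3 and -0.0047 without CGP replicate 2.

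The metabolic enzymes were Acsbg1, Cbs, Prodh, Slc25a18 and Plcd4, of which 3 had a lower mean in CGP (median change -0.064), or all 5 when limma weighted the arrays. Plcd4, a phospholipase C, had 8.40, 8.44 and 8.33 on the CON arrays and 8.32, 8.24 and 8.24 on the CGP arrays. The groups lay apart by a narrow gap (change -0.13, SE 0.044, adjusted p = 0.385, limma). Cbs, which makes cystathionine from homocysteine, had 9.42, 9.51 and 9.54 in CON and 9.34, 9.38 and 9.42 in CGP. The lowest CON array lay at the level of the highest CGP array, and the change was -0.11 (SE 0.044, adjusted p = 0.426, limma). Acsbg1, an acyl-CoA synthetase, had a change of -0.064 (SE 0.040). The changes of Prodh, the first enzyme of proline breakdown, and Slc25a18, a mitochondrial glutamate carrier, were 0.0026 (SE 0.047) and 0.0056 (SE 0.037), and both turned sign with array weights.

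**Figure D3:**
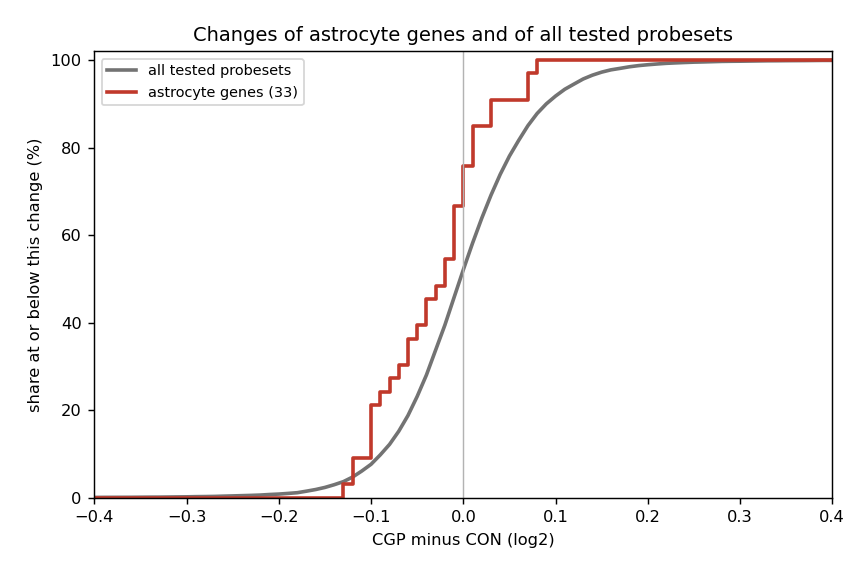
The vertical axis gives the share (%) of genes whose change is at or below the value on the horizontal axis (CGP minus CON, log2), for the 33 astrocyte genes and for all tested probesets. At -0.1 the shares were 21.2% and 7.63%, at 0 they were 75.8% and 52.1%, and all astrocyte genes lay at or below 0.08. With centred arrays 22 and after quantile normalization 21 of the 33 genes lay below 0, against 25 as deposited. The share of all tested probesets below 0 was counted only as deposited.

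The sequences before the start of S100b, Gfap and Gjb6 are shown because these were the genes of lowest p in the list that have a window at the start of the annotated gene. Each is the 250 bases before the RefSeq start on build GRCm38.p6, written 5′ to 3′ on the strand of the gene. S100b lies on the plus strand and its window is chr10:76253586-76253835. Gfap lies on the minus strand and its window is chr11:102897201-102897450. Gjb6 lies on the minus strand and its window is chr14:57133612-57133861. Capitals mark TTGGCA, which is one side of the palindrome bound by nuclear factor I (NFI) proteins, and ACAATG, a core bound by SOX proteins, on either strand.
S100b: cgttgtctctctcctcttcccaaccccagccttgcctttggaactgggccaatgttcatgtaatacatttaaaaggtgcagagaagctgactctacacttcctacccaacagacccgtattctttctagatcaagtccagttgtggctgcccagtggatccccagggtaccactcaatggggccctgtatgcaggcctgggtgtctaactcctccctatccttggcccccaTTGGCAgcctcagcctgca
Gfap: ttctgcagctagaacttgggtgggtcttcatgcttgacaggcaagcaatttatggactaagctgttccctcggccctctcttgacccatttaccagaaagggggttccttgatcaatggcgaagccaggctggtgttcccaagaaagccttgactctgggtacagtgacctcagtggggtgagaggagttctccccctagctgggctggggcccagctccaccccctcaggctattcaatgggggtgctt
Gjb6: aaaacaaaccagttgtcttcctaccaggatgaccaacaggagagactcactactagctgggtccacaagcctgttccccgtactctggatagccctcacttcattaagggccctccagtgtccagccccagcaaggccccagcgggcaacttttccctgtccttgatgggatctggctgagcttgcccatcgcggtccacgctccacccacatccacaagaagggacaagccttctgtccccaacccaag
The S100b window holds TTGGCA with its first base at -19 from the start. The windows of Gfap and Gjb6 hold neither motif.

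The RefSeq table held windows for 27 of the 33 genes. The 6 others, which were not searched, were Aqp4, Atp1b2, Chrdl1, Clu, Sox9 and Sparcl1. TTGGCA or its reverse complement TGCCAA was in those of 4 genes (14.8%; Aldoc, Apoe, Hepacam and S100b), against 14.1% of the 27025 genes in the table. ACAATG or CATTGT was in those of 3 genes (11.1%; Apoe, Bmpr1b and Lcat), against 12.2%. The TATA box TATAAA, or TTTATA, was in those of 6 genes (22.2%; Agt, Apoe, Bmpr1b, Ndrg2, Slc25a18 and Slc39a12), against 14.3%, and its first base lay at -30 in Agt and -29 in Ndrg2. These shares count letters in a window, not binding. Of the genes holding TTGGCA, Hepacam and S100b had all CGP arrays below CON, while the arrays of Aldoc and Apoe overlapped. Sparcl1, which also had all CGP arrays below CON, was not searched. A link between the motif and the change was not tested.

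Other genes of astrocyte pathways were looked up in lists. Over all tested probesets only 0.154% rose and 0.126% fell, so 0 calls in a list this short says little about its genes. The lists were made from background knowledge, but with earlier results of these data known. The list for clearance of glutamate, GABA and potassium had 11 genes tested of 12, of which 0 rose and 0 fell, with 4 above and 7 below CON and a median change of -0.025. Its smallest p was that of Kcnj16, an inward rectifier potassium channel (change -0.066, SE 0.044, adjusted p = 0.620, limma). The list for glycogen, lactate and lipid supply had 13 genes, of which 0 rose and 0 fell, 3 above and 10 below CON (median change -0.031). Pdk4, a kinase that holds pyruvate back from oxidation, had 9.68, 9.72 and 9.71 in CON and 9.58, 9.51 and 9.47 in CGP. These groups lay apart, and the change of -0.19 (SE 0.040) did not pass (adjusted p = 0.171, limma).

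The list for BMP and FGF signalling had 18 genes, of which 0 rose and 0 fell, 6 above and 12 below CON (median change -0.031). Its smallest p was that of Bmpr1a, the paralogue of Bmpr1b, with 9.51, 9.57 and 9.47 in CON and 9.43, 9.26 and 9.33 in CGP (change -0.18, SE 0.052, adjusted p = 0.308, limma). The relatives of Id3 and Id4 lay on opposite sides of CON, with changes of -0.095 (SE 0.041, adjusted p = 0.445, limma) for Id1 and 0.022 (SE 0.040, adjusted p = 0.876, limma) for Id2. The list of gliogenic transcription factors had 12 genes, of which 0 rose and 0 fell, 6 above and 6 below CON (median change -0.00100). Tcf7l2, a Wnt effector of glia and thalamic neurons, had 10.94, 10.94 and 10.92 in CON and 11.12, 11.10 and 11.09 in CGP. All its CGP arrays lay above CON (change 0.17, SE 0.033, adjusted p = 0.124, limma).

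The reactive astrocyte list had 30 genes tested of 36, of which 0 rose and 1 fell. With 23 genes below and 7 above CON its median change was -0.079, and 14 genes had all CGP arrays below CON and 1 all above, against 9.95% and 7.59% of all tested probesets. The gene that fell was Timp1, an inhibitor of matrix metalloproteinases that other cells make too. It had 7.57, 7.61 and 7.63 on the CON arrays and 7.07, 7.15 and 7.13 on the CGP arrays, with a change of -0.49 (SE 0.039, adjusted p = 0.00524, limma). Timp1 passed with any 1 array left out, and in 14 of the 16 alternatives in all, with the same direction in all 16. Vim, which this list shares with the list of ependyma and tanycytes, had a change of -0.11 (SE 0.036, adjusted p = 0.359, limma).

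**Figure D4:**
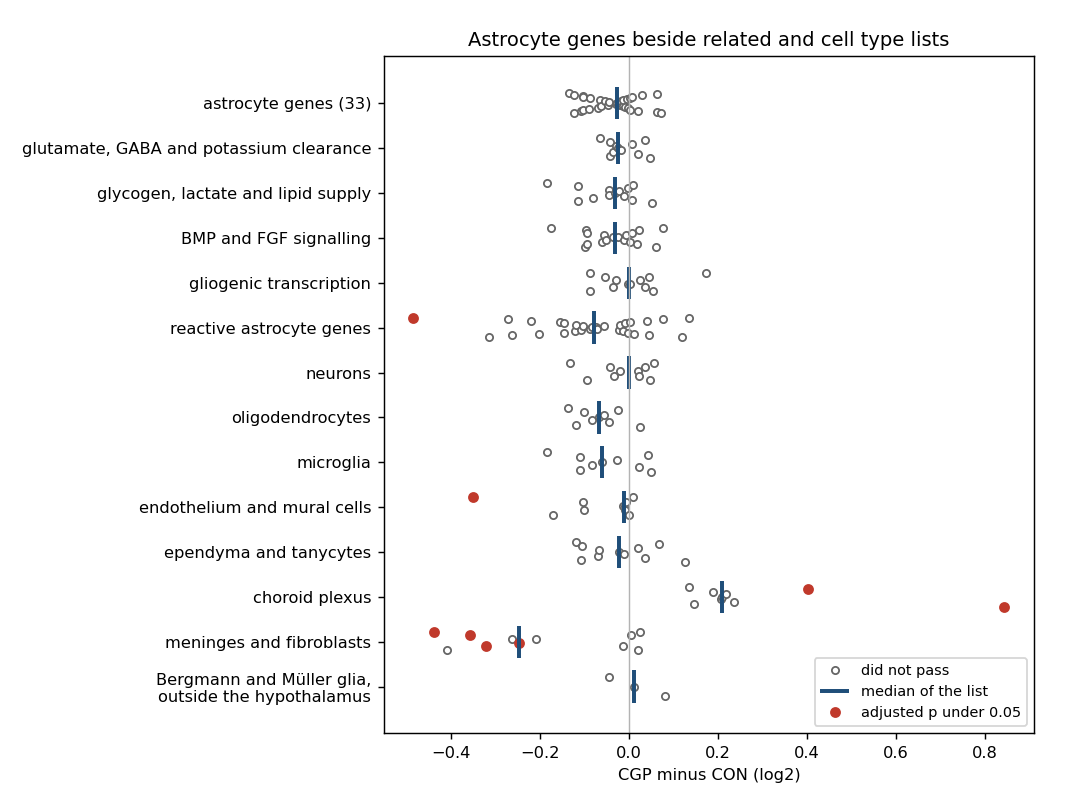
Each point is a gene, placed by CGP minus CON (log2), and each row a list, with the list's median as a vertical bar and red points for genes with an adjusted p under 0.05. The 33 astrocyte genes lie between -0.14 and 0.072 with 0 red points, the choroid plexus list has its median at 0.21 and the list of meninges and fibroblasts at -0.25.

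Marker lists of other cells of the tissue, also chosen with earlier results of these data known, are given for comparison. Of the neuronal list 0 of 10 genes passed, with 5 above and 5 below CON (median change -0.00090), and its smallest p was that of the neurofilament gene Nefl (-0.094, adjusted p = 0.409, limma). Of the oligodendrocyte list 0 of 9 passed, with 8 below CON and a median change of -0.067. The myelin gene Mog was its lowest (-0.14, adjusted p = 0.317, limma). Of the microglial list 0 of 9 passed, with 6 below CON and a median change of -0.061. Aif1, a calcium-binding protein of microglia, had the smallest p there (-0.19, adjusted p = 0.238, limma). The oligodendrocyte and microglial medians were thus also below 0, as was that of the astrocyte genes. The ependyma and tanycyte list had 0 of 11 past the test (median change -0.022). Markers of Bergmann and Müller glia, which are astrocyte relatives of other regions, had 0 of 3 past the test (median change 0.010, smallest p for Crb1, 0.082, adjusted p = 0.627, limma). The endothelial and mural list had 1 of 10 lower, the smooth muscle actin gene Acta2 (-0.35, adjusted p = 0.0249, limma, and 0.0632 to 0.132 with any 1 array left out), and a median change of -0.011.

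The list of the choroid plexus and most of the list of meninges and fibroblasts moved with the groups by more than the astrocyte genes. Of 9 choroid plexus genes tested, 2 rose and all 9 lay above CON (median change 0.21), and their mean level ran from 7.998 to 8.02 on the CON arrays and from 8.28 to 8.32 on the CGP arrays. The genes that rose were Ttr, the thyroid hormone carrier of the plexus (0.84, adjusted p = 2.90e-04, limma), and Slc4a5, a bicarbonate transporter (0.40, adjusted p = 0.0249, limma). Of 12 genes of meninges and fibroblasts 4 fell, and 9 lay below CON (median change -0.25), with a mean level from 8.88 to 8.89 on the CON arrays and from 8.65 to 8.71 on the CGP arrays. Ogn and Fmod, small matrix proteoglycans, fell (-0.44, adjusted p = 0.0293, and -0.36, adjusted p = 0.0409, limma). So did Slc6a20a, a proline transporter (-0.32, adjusted p = 0.0253, limma), and Igf2, a growth factor (-0.25, adjusted p = 0.0467, limma). Col3a1 (0.024), Lum (0.020) and Col1a2 (0.0040) lay above CON and Col1a1 (-0.014) below, all with overlapping arrays. Ttr still passed with any 1 array left out, whereas Slc4a5, Fmod, Slc6a20a and Igf2 did not pass whichever array was left out (adjusted p from 0.0590 to 0.223, limma). Ogn passed without CGP replicate 1 and missed the threshold when any of the other arrays was left out (adjusted p from 0.0870 to 0.165, limma). The mean level of the 33 astrocyte genes ran from 10.84 to 10.85 on the CON arrays and from 10.78 to 10.83 on the CGP arrays. The part of tissue from the plexus or the meninges in the values of the astrocyte genes, or in that of Timp1, was not tested.

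**Figure D5:**
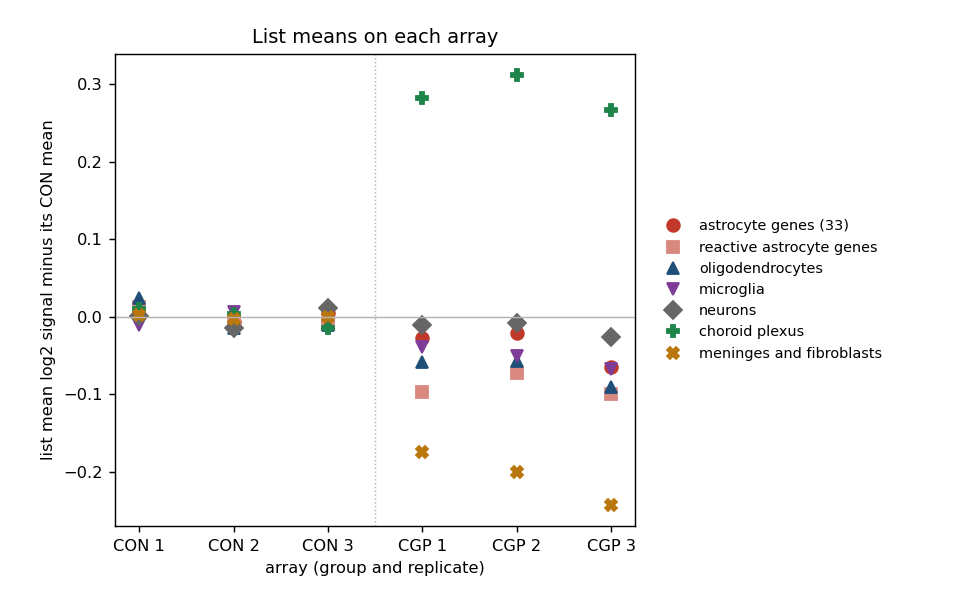
The vertical axis gives the mean log2 signal of a list on each array minus its mean over the 3 CON arrays, and the horizontal axis the 6 arrays. The difference of the CGP mean from the CON mean is -0.038 for the astrocyte genes, -0.068 for oligodendrocyte genes, -0.21 for genes of meninges and fibroblasts and 0.29 for choroid plexus genes.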

How the data were processed

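RNA of pooled hypothalamus was labelled with biotin and hybridised to 6 Affymetrix arrays. The deposited values are log2 signals of 28471 probesets, which the authors obtained with RMA in Partek according to the submitters' processing notes (their versions: not given in the sources used here). No column gives detection calls, so the number of arrays and the signal set the precision. Probesets were named through the platform annotation: 18690 had 1 gene, 1163 several and 8618 were not listed. Of 18690 Entrez IDs 18620 matched RefSeq and 0 symbols changed. Probesets with 1 gene and a mean of at least 6 were tested by limma 3.58.1 (lmFit, eBayes) in R 4.3.3, after the code was tested on simulated data. Tables and plots were made with Python 3.11.15, pandas 2.3.3, numpy 2.4.6 and matplotlib 3.10.9. Groups came from the labels. The 33 genes were all named. Of other lists, genes with an adjusted p under 0.05, or otherwise the gene of smallest p, were named. Id1, Id2, Col1a1, Col1a2, Col3a1 and Lum were named as well. The genes and lists were chosen with earlier results of these data known. The 16 alternatives changed the filter, the scaling, the variance model, the array weights, the replicate block, the probesets used and the arrays included.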

Additional observations from a re-analysis of the deposited data

How the results depend on the processing

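None of the 16 alternatives called an astrocyte gene higher in CGP, and 1 called a gene lower, S100b with the trended and robust eBayes (1 gene, adjusted p = 0.0491, limma). The lowest adjusted p of the 33 genes was 0.182 to 0.504 in the other 15. The 8 genes with p under 0.05 before adjustment became 5 with centred arrays, 4 after quantile normalization and 3 to 6 with 1 array left out. They became 12 with the trended and robust eBayes and 9 with ordinary ANOVA. The shares of all tested probesets with p under 0.05 before adjustment, or below CON, were not counted in the alternatives. The median change ran from -0.043 to -0.011 with 1 array left out. Counts of genes below CON (21 to 28), of genes whose arrays lay apart in either direction (10 to 17) and of intervals within 1.2-fold (31 to 33) stayed within 1.5 times of the values above. With 1 array left out, arrays lay apart more often over all tested probesets too. Those shares were 12.6% to 19.4% lower and 11.0% to 14.5% higher in CGP, against 9.95% and 7.59% with all 6 arrays. The genes with all CGP arrays above CON were 2 to 5 with 1 array left out, 5 without CGP replicate 3. Of 528 values of single astrocyte genes 27 changed sign, in 9 genes whose changes were at most 0.0205 in size. With centred arrays these were Agt (0.0098), Atp1b2 (0.0030) and Lcat (0.0062), after quantile normalization Agt (0.011), Atp1b2 (0.0042), Lcat (0.0036) and Mlc1 (0.0025), and with array weights Prodh (-0.0012) and Slc25a18 (-0.0042). With 1 array left out the changes ran from -0.020 to 0.0080 for Agt, -0.022 to 0.0015 for Atp1b2, -0.0058 to 0.014 for Clu, -0.030 to 0.0037 for Cst3, -0.016 to 0.059 for Id4, -0.039 to 0.026 for Lcat, -0.032 to 0.049 for Prodh and -0.015 to 0.019 for Slc25a18. The cause was not tested.

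The titles give each array a replicate number, and whether arrays with the same number shared a batch was not tested. The deviations from the group means correlated at 0.078, -0.18 and 0.11 for the same numbers, and CON replicates 1, 2 and 3 correlated best with CGP replicates 1, 1 and 2. A fit with the number as a replicate block called 0 astrocyte genes, left the median at -0.028 and called 6 of all probesets.

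Over all tested probesets 51 were called. This became 81 with the filter at 7, 5 with every probeset of the table tested, 249 with the trended and robust eBayes, 6 with ordinary ANOVA, 77 with array weights and 6 to 10 with 1 array left out. Ttr passed in 15 and Timp1 in 14 of the 16 alternatives, Ogn in 8, Acta2, Fmod and Slc6a20a in 7, Igf2 in 5, and Slc4a5 in 6 of the 15 that tested it, all in the same direction.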
